A study of Mus musculus with 36 samples.

Results

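Olaparib was compared with its DMSO vehicle in mouse RM-1-BM prostate cancer cells that carried an empty vector and shared a transwell coculture with RAW264.7 macrophages. The comparison was chosen by its sample labels: 3 libraries of vector cells from cocultures given olaparib were set against 3 from cocultures given DMSO, which is 6 of the 36 libraries of the series. All genes with enough counts were tested, 15962 of the 46078 in the count files. RM-1-BM is an established mouse prostate cancer line, and RAW264.7 is an established mouse macrophage line. The labels give the genotype of the vector cells as wild type and do not say whether the line was 1 clone. In a transwell the 2 cell types share medium through a porous membrane, so each can be harvested apart from the other. The macrophages of the coculture were therefore exposed to the same agent, and olaparib acting on the cancer cells cannot be told apart from olaparib acting through the macrophages. No source used here gives the dose or the duration of olaparib. For comparison, the report uses 6 libraries of vector cells grown alone with olaparib or DMSO and 6 of cells transduced with the SPOP variant F133V in coculture with olaparib or DMSO, again 3 to a group. Vector cells in coculture share no control library with either. Nothing in the labels tells if the 3 libraries within a group are separate cultures, and the p-values then reflect only how these libraries vary, possibly for technical reasons.

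Olaparib inhibits the poly(ADP-ribose) polymerases PARP1 and PARP2, enzymes that bind DNA breaks and mark the proteins around them. The inhibited enzyme stays bound to DNA, and the lesions that follow are repaired mainly by homologous recombination. Outside the nucleus, cells track the folding of secreted proteins through the unfolded protein response of the endoplasmic reticulum (ER), in which ATF6 and XBP1 raise ER chaperones. A partly overlapping program, the integrated stress response, acts through phosphorylation of the translation factor eIF2 and through ATF4, which raises amino acid transporters and biosynthetic enzymes.

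The 6 libraries held 34340043 to 41890800 counts in genes, and 20186 to 20653 genes had at least 1 count. Reads outside annotated genes were 18.8% to 20.1% of the total. Levels are given as CPM, a gene's counts per 1000000 counts of the library, scaled between libraries but not for gene length, so they compare libraries and not genes. The summed level of 18 macrophage markers was 22.9 to 24.6 CPM with DMSO and 22.3 to 23.3 CPM with olaparib, against 15782 to 16126 CPM in the macrophages of the same cocultures. Lyz2, the lysozyme of macrophages, was between 0.683 and 0.958 CPM in the 6 libraries, and Fcgr1 was at 0 in all of them. The labels call these cells epithelial. Of 11 markers of prostate and simple epithelium, Krt8, Krt18 and Krt19 had a mean of at least 1 CPM, while Hoxb13 and Krt14 were at 0 in all 6 libraries and Epcam did not pass 0.257 CPM. Stromal markers summed to 338 to 356 CPM with DMSO and 391 to 405 CPM with olaparib, most of it from Dcn. In these bulk samples, fewer cells of a type and less RNA per cell cannot be told apart.

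Olaparib was followed by many small differences in vector cells in coculture. At a Benjamini-Hochberg adjusted p under 0.05 in edgeR's quasi-likelihood test, 3765 genes were called, 23.6% of those tested: 2019 were higher (12.6%) and 1746 lower (10.9%) with olaparib. The median size of a called difference was 0.185 on the log2 scale, and 125 called genes differed at least 2-fold, 89 of them higher and 36 lower. Without adjustment, 5276 genes had p under 0.05. The 3 olaparib libraries were all above the 3 DMSO libraries for 20.1% of tested genes and all below for 18.5%.

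**Figure D1:**
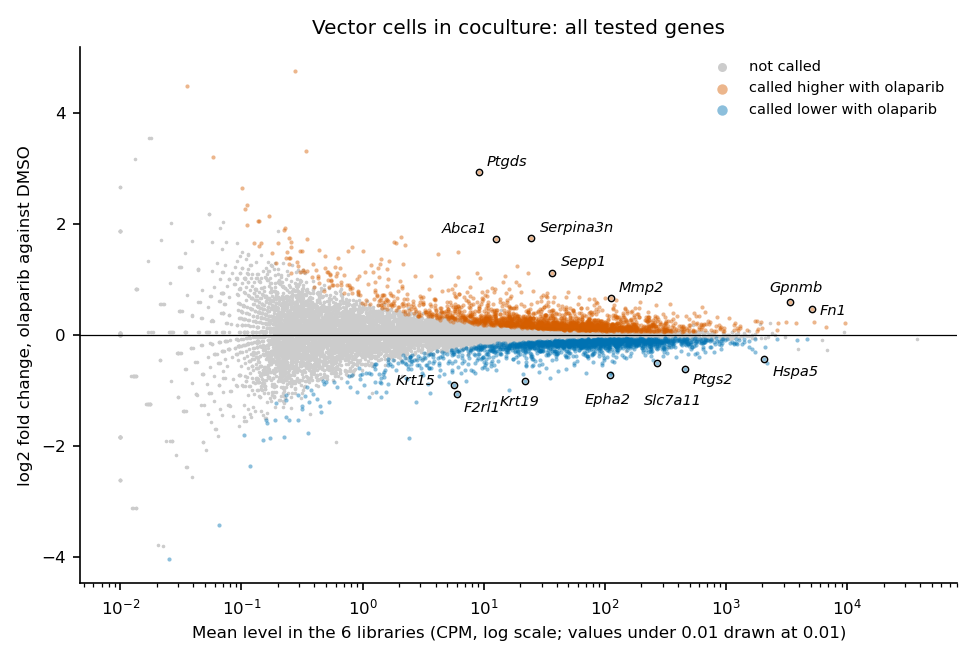
Each point is 1 of the 15962 tested genes, with its mean level over the 6 libraries (CPM, log scale) on the x axis and its log2 fold change, olaparib against DMSO, on the y axis. Orange points are the 2019 genes called higher and blue points the 1746 called lower, and Ptgds stands at the top of the named genes at 2.92.

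The drug's own targets moved little. Parp1, which encodes the main target, was at 136, 131 and 140 CPM with DMSO and at 151, 149 and 144 CPM with olaparib. The groups did not overlap, and the difference of 0.13 ± 0.03 (log2, ± SE, adjusted p = 0.00039) amounted to 1.09-fold. Parp2 was at 13.6, 12.7 and 13.3 CPM with DMSO and at 12, 12.4 and 11.4 CPM with olaparib, and it was not called (-0.14 ± 0.07, adjusted p = 0.12). Parg, the hydrolase that removes poly(ADP-ribose), stood at 0.00 ± 0.04. Of 23 tested genes of the PARP family and its erasers, 7 rose and 2 fell, with a median of 0.05, beside 12.6% higher and 10.9% lower of all genes; without olaparib library 2 the higher count was 4. Tiparp, a mono-ADP-ribosyltransferase and target of the aryl hydrocarbon receptor, rose most in this list, from 128, 129 and 130 to 174, 177 and 170 CPM (0.43 ± 0.03, adjusted p = 1.2e-14). Macrod1, an eraser of mono-ADP-ribose, rose by 0.38, and Parp3 rose by 0.21. Spop, the gene that carries F133V in the other cells of the study, was at 123, 124 and 126 CPM with DMSO and at 119 CPM in each olaparib library, and it was not called (adjusted p = 0.12).

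The largest rise among the named genes was in Ptgds, the prostaglandin D2 synthase. It was at 1.91, 1.96 and 2.51 CPM with DMSO and at 15.9, 16 and 16.1 CPM with olaparib, a 7.58-fold difference (2.92 ± 0.10, adjusted p = 1.8e-23). Serpina3n, a secreted inhibitor of serine proteases, went from 10.4, 11.3 and 12.4 to 36.5, 38.8 and 39 CPM (1.74 ± 0.06, adjusted p = 1.1e-22). The cholesterol exporter Abca1 went from 5.61, 6.16 and 5.72 to 19.5, 19.3 and 19 CPM (1.72 ± 0.07, adjusted p = 6.9e-22). None of the 3 genes had overlapping groups, and their olaparib libraries lay close together. Abca1 was at a mean of 200 CPM in the cocultured macrophages given DMSO and 129 CPM in those given olaparib, a difference that was not tested. Whether macrophage RNA has a part in the Abca1 rise was not tested either. Nrgn, which encodes neurogranin, rose by 1.50, Tnr, which encodes tenascin-R, by 1.02, and Nptx1, a pentraxin, by 0.96. Sepp1, which encodes the selenium carrier selenoprotein P, rose from 21.2, 24.9 and 23.3 to 48.6, 51.1 and 51.3 CPM (1.12 ± 0.05). Igfbp5, a binding protein of insulin-like growth factors, rose by 1.12 ± 0.06 from 16.7, 14.4 and 13.1 to 30.3, 32.7 and 33.3 CPM. Bace2, a membrane protease, rose by 1.45, and the lactate dehydrogenase subunit Ldhb by 1.11. The smallest adjusted p-value among these genes belonged to Gpnmb, a lysosomal and surface glycoprotein, which was at 2718, 2702 and 2745 CPM with DMSO and 4094, 4102 and 4062 CPM with olaparib (0.59 ± 0.02, adjusted p = 1.6e-24). Its fold of 1.50 was modest, and the libraries within each group differed by far less than the groups did.

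The falls were smaller than the rises. F2rl1, the protease-activated receptor PAR2, was at 8.21, 8.61 and 7.55 CPM with DMSO and at 3.28, 4.66 and 3.82 CPM with olaparib (-1.06 ± 0.10, adjusted p = 1.3e-10). Cdsn, which encodes corneodesmosin, was at 21.6, 21.5 and 21.5 CPM with DMSO and at 10.4, 11.6 and 10.5 CPM with olaparib (-0.99 ± 0.06, adjusted p = 1.4e-16). In both genes every olaparib library lay below every DMSO library. Surface receptors and an enzyme of inflammation were among the falls with the smallest p-values. Epha2, an ephrin receptor kinase, fell from 139, 137 and 132 to 83.8, 81.6 and 83 CPM (-0.71 ± 0.03, adjusted p = 1.2e-21). Plaur, the urokinase receptor, fell from 84.5, 88.4 and 87 to 52.7, 55.3 and 54.2 CPM (-0.68 ± 0.03, adjusted p = 1.1e-19). Ptgs2, the inducible cyclooxygenase COX-2, fell from 532, 569 and 553 to 354, 363 and 362 CPM (-0.62 ± 0.03, adjusted p = 1.6e-20). Ptgs2 makes the prostaglandin H2 that Ptgds converts, and the 2 genes thus moved in opposite directions. Of the keratin genes named, Krt19 went from 27.2, 28.9 and 27.8 to 15.9, 16.1 and 15.3 CPM (-0.82 ± 0.06), Krt15 fell by 0.90 and Krt18 by 0.30, while Krt8 was not called (0.04 ± 0.06, adjusted p = 0.74). Dsp, the desmosomal plaque protein desmoplakin, fell by 0.60, and Cav1, the coat protein of caveolae, fell by 0.70 ± 0.07.

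**Figure D2:**
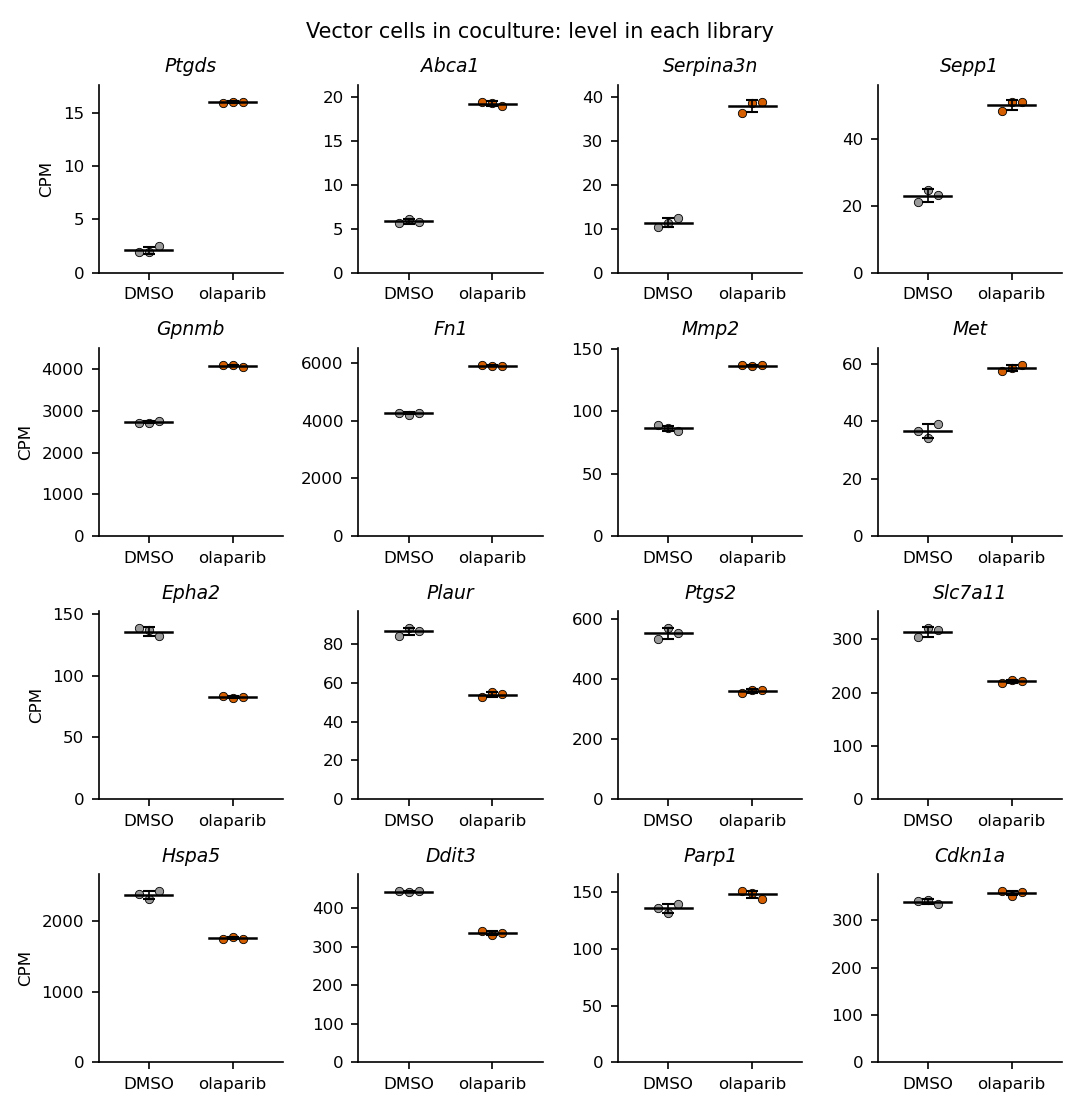
Levels of 16 genes in each library of vector cells in coculture, in CPM on linear axes from 0, with grey points for DMSO, orange points for olaparib, and bars for the mean and SD (n = 3 libraries a group). The groups do not overlap in any of the 16 panels, from Ptgds at 7.58-fold to Cdkn1a at 1.05-fold.

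ER chaperones and ER stress sensors fell together. Of 25 genes listed, 24 were tested and all 24 fell, against 10.9% of all genes tested. Their median was -0.26, with a range from -0.54 to -0.10. In each of the 24 the 3 olaparib libraries were all below the 3 DMSO libraries, against 18.5% of all genes. Derl3 had too few counts to be tested.

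Hspa5 encodes BiP, the master chaperone of the ER lumen that also holds the stress sensors inactive. It was at 2376, 2312 and 2419 CPM with DMSO and at 1751, 1774 and 1742 CPM with olaparib (-0.43 ± 0.02, adjusted p = 1.7e-18). The Hspa5 promoter is known for the ER stress response element (ERSE), the site through which ATF6 and XBP1 act, and the element was therefore looked for in the list. The letters CCAAT and CCACG with any 9 bases between them, on either strand of the 250 bases before the gene's start, were present in 35 of 27025 mouse genes (0.13%) and in 9 of the 22 listed genes with a promoter sequence in the table. Of these 9 genes, 8 were tested. Besides Hspa5 they were Hsp90b1, Calr, Canx, Pdia6, Dnajc3, Creld2 and Syvn1. All fell, but so did every tested gene of the list, so their fall tells nothing about the element. Of 9 other tested genes with the element, 0 rose and 2 fell (22.2%), with a median of -0.10, beside 12.6% higher and 10.9% lower of all genes. A related element, ERSE-II (ATTGG and CCACG with 1 base between them, either strand), was present in 10 genes (0.037%), among them Herpud1. The sites are shown for 7 of the genes that fell, which were picked for holding these letters. Sequences are from RefSeq (mouse build GRCm38.p6), written on the strand of the gene, and capitals mark the element. They lie at chr2:34772020-34772048 (Hspa5, plus strand), chr10:86705528-86705556 (Hsp90b1, minus), chr12:17266486-17266514 (Pdia6, plus), chr11:50325750-50325868 (Canx, minus), chr14:118937777-118937895 (Dnajc3, plus), chr15:88819470-88819588 (Creld2, plus) and chr19:6046482-6046575 (Syvn1, plus).
Hspa5: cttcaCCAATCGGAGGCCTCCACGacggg
Hsp90b1: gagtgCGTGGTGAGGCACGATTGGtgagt
Pdia6: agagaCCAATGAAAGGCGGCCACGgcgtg
Canx: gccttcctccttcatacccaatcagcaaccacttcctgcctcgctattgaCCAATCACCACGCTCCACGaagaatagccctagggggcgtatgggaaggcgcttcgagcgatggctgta
Dnajc3: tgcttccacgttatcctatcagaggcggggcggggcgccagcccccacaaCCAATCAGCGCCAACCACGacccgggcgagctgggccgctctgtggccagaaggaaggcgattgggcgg
Creld2: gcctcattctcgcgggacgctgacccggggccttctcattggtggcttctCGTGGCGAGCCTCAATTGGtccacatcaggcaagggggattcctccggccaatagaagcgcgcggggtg
Syvn1: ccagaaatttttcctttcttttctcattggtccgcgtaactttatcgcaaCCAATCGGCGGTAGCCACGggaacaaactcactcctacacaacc
In Hsp90b1 and Creld2 the element reads on the opposite strand, so its reverse complement is in capitals. The ends of the element nearest to the gene's start were 26 bases upstream in Syvn1 and 127 in Canx, with the others between. A match of letters is a description of the sequence and not of a bound factor.

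The listed genes, with or without the element, act at several steps of folding. Hsp90b1, which encodes the ER chaperone GRP94, went from a mean of 1906 to 1542 CPM (-0.31). Pdia6 and Pdia4, disulfide isomerases, both fell by 0.32, Pdia6 from 648, 635 and 652 to 516, 522 and 511 CPM. Dnajc3, a cochaperone of BiP, went from a mean of 132.5 to 103 CPM (-0.36), and Creld2, a secreted ER stress protein, from 82.7 to 62.4 CPM (-0.41). Calr and Canx, the lectin chaperones of glycoproteins, fell by 0.21 and 0.17. Sdf2l1, a component of an ER chaperone complex, had the largest difference in the list at -0.54. Manf, a secreted protein of the stressed ER, was at 242, 243 and 242 CPM with DMSO and at 186, 188 and 193 CPM with olaparib (-0.36 ± 0.02, adjusted p = 4.2e-15). Hyou1, a nucleotide exchange factor for BiP, went from 622, 620 and 630 to 501, 492 and 491 CPM (-0.34 ± 0.02, adjusted p = 7.9e-16). The factors upstream fell too: Xbp1 by 0.27, Atf6 by 0.25 and Ern1, which encodes the sensor IRE1, by 0.10. Herpud1 and Syvn1, which act in the disposal of misfolded proteins, fell by 0.37 and 0.24.

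Genes of the integrated stress response also fell, 33 of 38 tested with 0 higher and a median of -0.19. Of all genes tested, 10.9% were lower and 12.6% higher. The 5 that were not called were Pck2, Sesn2, Ddit4, Slc7a3 and Cebpb. Slc7a11, the cystine importer, was at 304, 321 and 316 CPM with DMSO and at 218, 223 and 222 CPM with olaparib (-0.51 ± 0.03, adjusted p = 5.7e-17). Its partner chain Slc3a2 was at 565, 553 and 559 against 479, 469 and 465 CPM (-0.25 ± 0.02), and Slc7a1, the transporter of cationic amino acids, at 798, 778 and 798 against 676, 681 and 680 CPM (-0.22 ± 0.02). Among regulators, Ddit3, which encodes the transcription factor CHOP, went from 443, 440 and 443 to 341, 330 and 336 CPM (-0.40 ± 0.02, adjusted p = 9.4e-18). Ppp1r15a, the phosphatase subunit that reverses eIF2 phosphorylation, fell by 0.39 ± 0.03, Atf3 by 0.37 ± 0.04, Trib3 by 0.20 and Atf4 itself by 0.16. Fgf21, a secreted stress hormone, fell from 10.5, 11.1 and 9.97 to 6.38, 6.38 and 6.79 CPM (-0.69 ± 0.07, adjusted p = 2.4e-10). Enzymes of asparagine, serine and one-carbon synthesis fell by less: Asns by 0.19, Phgdh by 0.19, Psat1 by 0.18, Mthfd2 by 0.16 and Shmt2 by 0.11. For the amino acid response element (AARE) that ATF4 binds with a C/EBP partner, the letters TGATG and AA with 1 base between them were looked for on either strand of the 250 bases before the start. They were in 1056 of 27025 genes (3.91%) and in 10 of the 31 listed genes found in the promoter table. Among these 10 was Pck2, which was not called. Among 238 other tested genes with these letters, 25 rose and 37 fell (15.5%), with a median of -0.01, beside 12.6% higher and 10.9% lower of all genes. The sites are shown for 4 of the 10 listed genes, which are much used reporters of ATF4. In all 4 the letters read on the opposite strand, so the reverse complement TTGCATCA is in capitals; they lie at chr3:50443648-50443665 (Slc7a11, minus strand), chr7:45615572-45615679 (Fgf21, minus), chr1:191183386-191183493 (Atf3, minus) and chr2:119350999-119351106 (Chac1, plus), in RefSeq's GRCm38.p6.
Slc7a11: agaatTTGCATCAtcatg
Fgf21: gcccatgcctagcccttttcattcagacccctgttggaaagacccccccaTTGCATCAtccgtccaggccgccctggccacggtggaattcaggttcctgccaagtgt
Atf3: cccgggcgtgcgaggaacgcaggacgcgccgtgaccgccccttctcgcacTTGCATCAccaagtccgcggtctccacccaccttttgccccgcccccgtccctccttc
Chac1: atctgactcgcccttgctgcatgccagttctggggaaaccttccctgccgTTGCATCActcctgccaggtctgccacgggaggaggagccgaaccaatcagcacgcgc
The 4 genes were picked for holding these letters and for their use as reporters, and all 4 fell. Chac1, which encodes a glutathione-degrading enzyme, fell by 0.25.

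NRF2 targets and ribosome biogenesis genes were more often lower than higher. Of 31 tested targets of NRF2, the regulator of antioxidant genes, 18 fell and 3 rose (median -0.12), beside 10.9% lower and 12.6% higher of all genes, and Slc7a11 and Epha2 are on that list as well. Sqstm1, the autophagy receptor p62, was at 1766, 1774 and 1769 CPM with DMSO and at 1494, 1486 and 1501 CPM with olaparib (-0.25 ± 0.02). The glutathione exporter Abcc1 fell by 0.26 and Pgd, of the pentose phosphate pathway, by 0.22, while Nfe2l2, which encodes NRF2, rose by 0.16. Of 39 ribosome biogenesis genes 21 fell and 0 rose (median -0.08). Nop58 and Dkc1, protein parts of small nucleolar ribonucleoproteins, fell by 0.19 and 0.20. Myc, whose product drives such genes, was at 33.3, 32.1 and 30.2 CPM with DMSO and at 27, 24.9 and 26.2 CPM with olaparib (-0.29 ± 0.05, adjusted p = 6.3e-05). Cytosolic heat shock genes were mixed, with 5 of 21 lower and 2 higher; the lower count was 3 without DMSO library 3 and 8 in a fit of only the 2 groups. Of these, Hspa1b, an inducible HSP70, fell by 0.54 ± 0.05 and Hsp90aa1 by 0.13, whereas Hsp90ab1 rose by 0.07. Early response genes were lower in 12 of 37 and higher in 5, and ligands of the epidermal growth factor receptor (Areg at -0.38 and Ereg at -0.36) fell in the list of growth factors, in which 10 of 33 rose and 6 fell. The receptor gene Met rose from 36.4, 34.1 and 39 to 57.6, 58.5 and 59.6 CPM (0.69 ± 0.04, adjusted p = 1.6e-16).

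Mitochondrial and lysosomal genes rose. Of 41 nuclear genes of the respiratory chain and ATP synthase, 34 rose and 0 fell, against 12.6% of all genes that rose, with a median of 0.14. Atp5a1, a catalytic subunit of the ATP synthase, went from 589, 569 and 586 to 666, 676 and 669 CPM (0.21 ± 0.02, adjusted p = 7.6e-09), with no overlap. Sdha, of succinate dehydrogenase, rose by 0.26 ± 0.03, its partner Sdhc by 0.23, and Cox4i1 of cytochrome oxidase by 0.18. Of the 15 tested genes encoded in mitochondrial DNA 4 rose, mt-Co1, mt-Cytb, mt-Nd1 and mt-Nd4, by 0.21 to 0.24, with 7 higher in a fit of only the 2 groups, and 7 higher and 1 lower without a filter. Mitochondrial genes together took 2.38%, 2.49% and 2.48% of counts with DMSO and 2.76%, 2.84% and 2.90% with olaparib, so the groups did not overlap; whether RNA quality has a part in this was not tested. Of 35 lysosomal genes 28 rose and 1 fell (median 0.14). Naglu, a heparan sulfate hydrolase, was at 72.2, 72.4 and 70.6 CPM with DMSO and at 99, 97.3 and 100 CPM with olaparib (0.46 ± 0.04, adjusted p = 2.9e-13). Gla, the alpha-galactosidase, rose by 0.38, Hexa, of beta-hexosaminidase, by 0.28, and Psap, the precursor of the saposins, by 0.25 from 1594, 1594 and 1586 to 1884, 1909 and 1898 CPM. Tfeb, a master regulator of lysosomal genes, rose by 0.53, and its relative Tfe3 was the 1 gene that fell, by 0.08, a call lost with DESeq2 (adjusted p = 0.052), without a filter (0.085) and without DMSO library 1 (0.11), 2 (0.069) or 3 (0.10) or olaparib library 1 (0.078) or 2 (0.20). Cd68, which is on this list and is also a macrophage marker, rose from 2.75, 2.68 and 3.9 to 5.17, 4.6 and 4.7 CPM (0.65 ± 0.11), while Lyz2 was not called (-0.01 ± 0.39, adjusted p = 0.99). Cd53, a macrophage marker above Cd68 in these cancer cells though not in the macrophages, was lower (-0.43 ± 0.08, adjusted p = 6.6e-05). Of 11 tested macrophage markers 1 rose and 1 fell.

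Lipid genes moved by branch. Of 29 genes of fatty acid and lipid handling 14 rose and 4 fell (2 without DMSO library 2), beside 12.6% and 10.9% of all genes. Cpt1a, which commits fatty acids to mitochondrial oxidation, went from 45.8, 44.7 and 47.2 to 63.6, 62.5 and 61.9 CPM (0.45 ± 0.03, adjusted p = 4.7e-15). Mylip, a ubiquitin ligase gene and, like Abca1, a target of the liver X receptors, rose by 0.50 ± 0.07. Nr1h3, which encodes the liver X receptor alpha, was called lower at -1.59, from means of 0.245 and 0.0799 CPM, and it was not called without DMSO library 2 (-1.30, adjusted p = 0.11). Of 25 sterol synthesis genes 10 fell and 3 rose (1 without DMSO library 3; median -0.07): Msmo1, a sterol oxidase gene, fell by 0.13 ± 0.03 and Cyp51, the lanosterol demethylase, by 0.12 ± 0.02. Glycolytic and hypoxia genes were split, with 16 of 39 lower and 9 higher; the lactate exporter Slc16a3 (-0.20), Ldha (-0.22) and the collagen hydroxylases P4ha2 (-0.30) and P4ha1 (-0.21) were lower, while Eno2 (0.45) and Bhlhe40 (0.37) were higher.

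**Figure D3:**
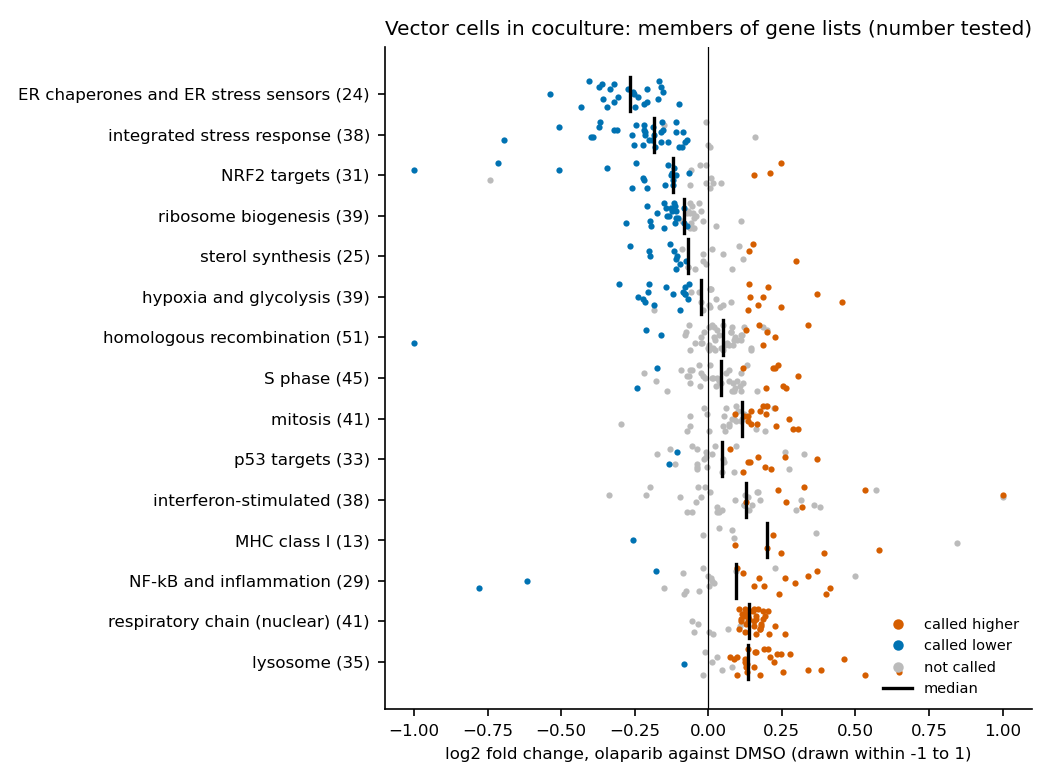
Log2 fold change, olaparib against DMSO in vector cells in coculture, of each tested member of 15 gene lists, with the median of each list as a black bar and values beyond 1 in either direction drawn at the edge. All 24 ER chaperone genes lie below 0, whereas 34 of 41 nuclear respiratory chain genes and 28 of 35 lysosomal genes were called higher.

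Calls among genes of DNA repair went both ways, and those of homologous recombination were no more frequent than among all genes. Of 51 homologous recombination genes 6 were higher and 3 lower (median 0.05), beside 12.6% higher and 10.9% lower of all genes; the lower count was 1 without DMSO library 2 or olaparib library 1. Brca1 was at 19, 17.9 and 18.6 CPM with DMSO and at 20.9, 20.8 and 21.4 CPM with olaparib (0.19 ± 0.05, adjusted p = 0.0064). Rad54l rose by 0.34, and Mdc1, a scaffold at DNA breaks, by 0.20. Of 35 genes of base excision and other repair 7 rose and 3 fell. The 7 became 1 without olaparib library 1, 2 without olaparib library 3 or DMSO library 2, 3 without olaparib library 2, 4 without DMSO library 3, and 3 with DESeq2 or without a filter. Xrcc5, which encodes the end-joining protein Ku80, rose from 100, 95.9 and 99.1 to 138, 137 and 134 CPM (0.48 ± 0.03, adjusted p = 9.8e-16), while its partner Xrcc6 (Ku70) fell by 0.18 ± 0.04. Of 33 p53 targets 9 rose (5 without olaparib library 3) and 2 fell (median 0.05). Cdkn1a, the cell cycle inhibitor p21, was at 340, 343 and 334 CPM with DMSO and at 361, 351 and 359 CPM with olaparib, a 1.05-fold difference (0.07 ± 0.02, adjusted p = 0.02) that was no longer called without DMSO library 3, olaparib library 1 or olaparib library 3 (adjusted p of 0.095, 0.084 and 0.072). Mdm2, the feedback inhibitor of p53, was not called (0.00 ± 0.02, adjusted p = 0.94), nor was Trp53 (-0.02 ± 0.02, adjusted p = 0.71). Mitotic genes rose in 16 of 41 and fell in 0, with a median of 0.12. Ube2c, a ubiquitin carrier of mitotic exit, rose by 0.27, Top2a by 0.14 and Mki67 by 0.12 (157, 152 and 165 against 170, 177 and 168 CPM, adjusted p = 0.0043, and 0.057 without DMSO library 2). Genes of S phase rose in 8 of 45 and fell in 2, and 5 rose without DMSO library 2, olaparib library 1 or olaparib library 2. Among them Cdt1, the licensing factor, rose by 0.31, and Mcm2 fell by 0.18.

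Interferon-stimulated genes that were called in the main fit were all higher. Of 38 tested interferon-stimulated genes 7 rose and 0 fell (median 0.13), beside 12.6% higher and 10.9% lower of all genes. The higher count was 5 with DESeq2, without DMSO library 1 or without olaparib library 2. In a fit of only the 2 groups 9 rose and 1 fell. The receptor for cytosolic DNA, cGAS (listed as Mb21d1), and its adaptor STING (Tmem173) were not called (0.01 ± 0.10 and -0.05 ± 0.04). Usp18 rose by 0.33 and Gbp2 by 0.53. Enpp1, the hydrolase of the cGAS product cGAMP, rose by 0.68 ± 0.09 from 5.05, 5.25 and 5.52 to 7.6, 8.54 and 9.29 CPM. Of 13 tested genes of MHC class I presentation 6 rose and 1 fell (median 0.20, and 0.084 without olaparib library 1 or 0.11 without DMSO library 3). Psmb10, an immunoproteasome subunit, went from 11.4, 12.1 and 11.5 to 18.1, 16.8 and 17.5 CPM (0.58 ± 0.07), Tapbp (tapasin) from 121, 124 and 121 to 165, 157 and 159 CPM (0.39 ± 0.03) and B2m from 291, 288 and 294 to 339, 351 and 347 CPM (0.25 ± 0.03). The 1 that fell, Pdia3, is also an ER chaperone. Among ligands of immune checkpoints and their kin, 4 of 14 fell and 1 rose. Cd274, which encodes PD-L1, was at 10, 12.1 and 11.2 CPM with DMSO and at 7.54, 9.15 and 8.33 CPM with olaparib (-0.42 ± 0.08, adjusted p = 0.00016), and Pvr fell by 0.22 ± 0.02. Of 29 NF-kB and inflammatory genes 12 rose and 3 fell. Those higher included Cebpd (0.37) and Relb (0.30), and those lower included Ptgs2 and Vcam1 (-0.18). Of 23 genes of STAT3 and IL-6 family signaling 10 rose and 3 fell, with the lowest at -0.61. Stat3, the transducer of IL-6 family cytokines, rose by 0.23 ± 0.03, and Lif, one of those cytokines, by 0.34. Of 21 chemokine and cytokine genes 7 rose and 2 fell, and the lowest, at -0.61, was the same one as in the STAT3 list. Only 4 of these rose without DMSO library 1, olaparib library 1 or olaparib library 2, and 0 fell without DMSO library 1, olaparib library 1 or olaparib library 3. The chemokine Ccl8 rose from 8.84, 8.99 and 9.4 to 15.3, 16 and 15 CPM (0.77 ± 0.07), and Spp1, which encodes osteopontin, by 0.25. Ccl2 was at 9.94, 9.29 and 9.08 against 10.3, 11.6 and 11.2 CPM; the groups did not overlap but it was not called (adjusted p = 0.067). Csf1, the growth factor of macrophages, was not called either (0.01 ± 0.03). Il6, Tnf, Ifnb1 and Cxcl10 had too few counts to be tested.

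Matrix genes moved in both directions. Of 37 genes of collagens and other matrix proteins 17 rose and 9 fell (median 0.11), beside 12.6% and 10.9% of all genes. Fn1 (fibronectin) was at 4275, 4210 and 4273 CPM with DMSO and at 5938, 5905 and 5885 CPM with olaparib (0.47 ± 0.02, adjusted p = 1.1e-21). Thbs1 (thrombospondin) rose by 0.79 ± 0.06, Tgfbi by 0.32, and the collagen VI chains Col6a1 and Col6a2 by 0.29 and 0.35. Sparc fell from 113, 110 and 113 to 76.9, 80.1 and 78.6 CPM (-0.51 ± 0.03, adjusted p = 1.4e-16), and the basement membrane chains Col4a1 and Col4a2 fell by 0.23 and 0.17. Of 27 matrix proteases and their inhibitors 12 rose and 4 fell. The gelatinase Mmp2 went from 88.8, 86.5 and 84.3 to 137, 136 and 137 CPM (0.66 ± 0.03, adjusted p = 2.6e-21), and Mmp11 from 68.2, 66.6 and 64.4 to 98.2, 95.9 and 97 CPM (0.55 ± 0.03). The tissue inhibitor Timp3 fell by 0.48 ± 0.03. Of 32 genes of the TGF-beta and activin pathways 11 rose (7 without DMSO library 3 or olaparib library 2) and 1 fell, led by Inhbb, an activin subunit, at 0.68 ± 0.04.

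Whether the olaparib difference was the same in coculture and in vector cells grown alone was tested by an interaction. The design cannot tell an effect of the macrophages apart from any other difference between the 2 kinds of culture. In monoculture 4857 genes were called (30.4%), 2445 higher (15.3%) and 2412 lower (15.1%), with 50.3% of calls higher, or 40.9% when scaled by library size alone. Of the 3765 genes called in coculture, 2064 were called in the same direction in monoculture (54.8% of the coculture list and 42.5% of the monoculture list), 205 in the opposite direction (5.44% and 4.22%) and 1496 were not called. The difference between the 2 responses was called for 2186 genes (13.7%), 1144 more positive (7.17%) and 1042 more negative (6.53%) in coculture; 52.3% of calls were positive, or 66.2% when scaled by library size alone. Of the 3 monoculture DMSO libraries 2 had Lyz2 above 2 CPM, up to 4.36 CPM, and without them the interaction count was 1161. The part of macrophage RNA in the interaction was not otherwise tested.

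The ER chaperones differed between the cultures. In monoculture 2 of the 24 rose and 6 fell, with a median of -0.02, beside 15.3% higher and 15.1% lower of all genes. The interaction was called more negative in coculture for 20 of 24 and more positive for 0, beside 6.53% and 7.17% of all genes. Its median was -0.25, and -0.26 without the 2 monoculture libraries. With DESeq2, library size alone or a fit of only the groups compared, 1 gene was called more positive. Pdia6 stood at 0.02 in monoculture and -0.32 in coculture (interaction -0.34 ± 0.03, adjusted p = 7.8e-11), and Manf at -0.03 and -0.36. Hspa5 was called lower in both, from a mean of 1071 to 880 CPM alone (-0.28), and its interaction was -0.15 ± 0.03 (adjusted p = 0.00058). The integrated stress response behaved otherwise: 36 of 38 genes fell in monoculture, with a median of -0.28, and the interaction was positive for 17 and negative for 2. Ddit3 stood at -0.65 alone and -0.40 in coculture (interaction 0.25 ± 0.03), and Atf3 at -0.77 and -0.37. Other lists differed as well, and their counts stand beside the same shares of all genes. Hypoxia and glycolysis genes rose in 33 of 39 in monoculture (median 0.21), and the interaction was negative for 29 and positive for 1. Slc16a3, for example, stood at 0.26 alone and at -0.20 in coculture (interaction -0.47 ± 0.03, adjusted p = 2.7e-14). Sterol synthesis rose in 21 of 25 alone (median 0.20), with a negative interaction in 18, and Msmo1 stood at 0.12 alone and -0.13 in coculture. Mitotic genes rose in 39 of 41 alone and S phase genes in 38 of 45, with negative interactions in 24 and 20. Respiratory chain genes rose in 11 of 41 and fell in 4 alone, and had a positive interaction in 15 and a negative one in 0. Without the 2 monoculture libraries the interaction counts were 28 negative for hypoxia, 15 for sterol synthesis, 13 for mitosis, 15 for S phase, 11 positive for the integrated stress response and 4 for the respiratory chain. Among single genes, Krt18 was called higher alone (0.37) and lower in coculture (-0.30), Mmp11 lower alone (-0.18) and higher in coculture (0.55), and Csf1 lower alone (-0.50) and not called in coculture (interaction 0.51 ± 0.04, adjusted p = 5e-12). Serpina3n rose by 0.73 alone and by 1.74 in coculture (interaction 1.01 ± 0.13, adjusted p = 3.6e-07).

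**Figure D4:**
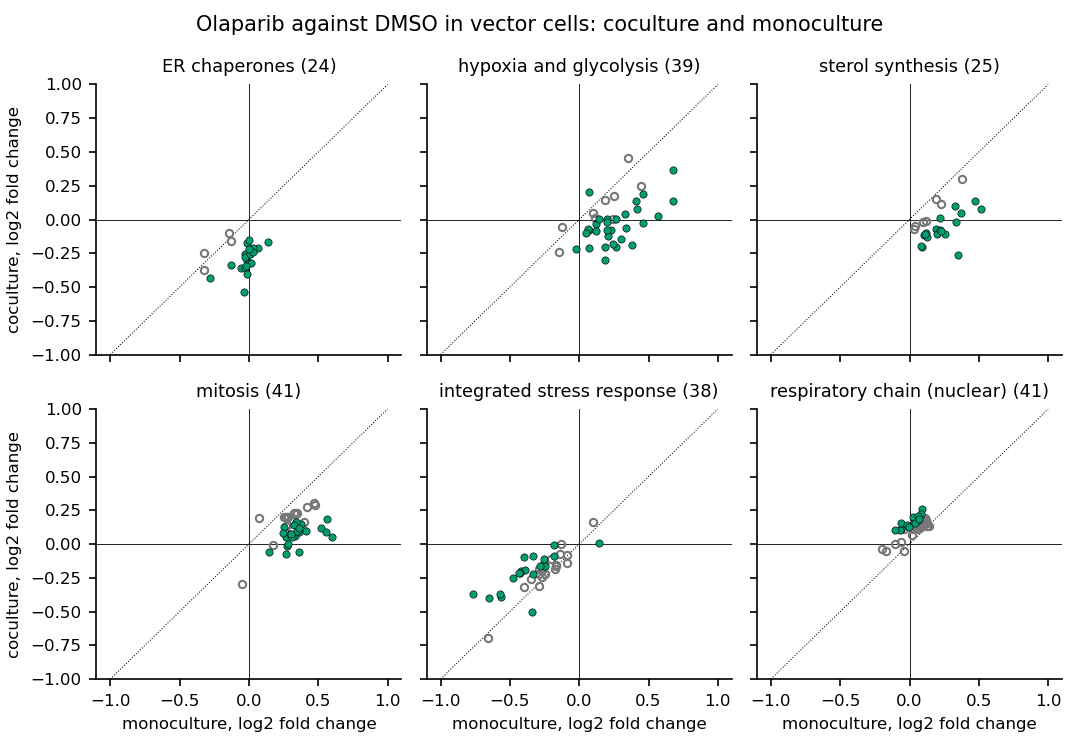
Log2 fold change with olaparib in monoculture (x axis) and in coculture (y axis) of vector cells for the tested members of 6 gene lists, with filled points where the interaction was called and a dotted line of equal values. Most ER chaperones lie below the line with 20 of 24 filled, and integrated stress genes lie mostly in the lower left above it with 19 of 38 filled.

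Against cells with the SPOP variant F133V in the same kind of coculture, fewer genes were called in the vector cells. Olaparib was followed by calls in 12185 genes (76.3%) of the F133V cells, 6280 higher (39.3%) and 5905 lower (37%), and the difference between the 2 responses was called for 10751 genes (67.4%). Of the 3765 genes called in vector cells, 2245 had the same direction in F133V cells (59.6% of the vector list and 18.4% of the F133V list) and 1103 the opposite (29.3% and 9.05%). ER chaperones went in opposite directions: 20 of 24 rose and 4 fell in F133V cells, with a median of 0.59. Hspa5 went from a mean of 3798 to 4888 CPM there (0.36), and its vector minus F133V difference was -0.80 ± 0.03 (adjusted p = 8.4e-24). Interferon-stimulated genes rose in 33 of 38 in F133V cells with a median of 1.38, against 7 of 38 in vector cells. Ptgds rose in both (2.75 in F133V cells), and its interaction was not called (0.17 ± 0.16, adjusted p = 0.34). Gpnmb, Fn1, Mmp2 and Abca1 were higher and Epha2, Plaur and Ptgs2 lower with olaparib in all 3 settings. Scaling by library size alone moved the median of all genes by 0.21 in the F133V comparison, so the split of its calls depends on the scaling.

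**Figure D5:**
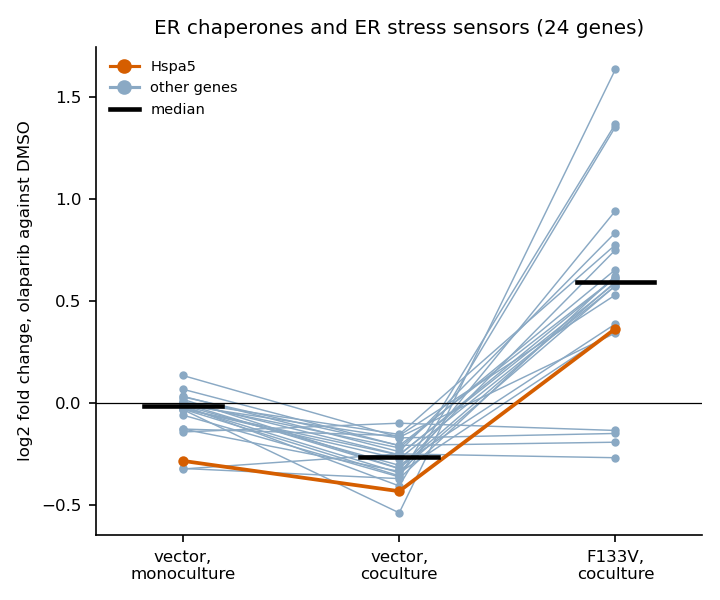
Log2 fold change with olaparib of the 24 ER chaperone and ER stress sensor genes in vector cells alone, vector cells in coculture and F133V cells in coculture, each line 1 gene, with Hspa5 in orange and the median as a black bar. The medians are -0.02, -0.26 and 0.59.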

How the data were processed

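RNA-seq count files of 30 of the 36 libraries were used, 3 to a group; the macrophages cultured with F133V cells were not used here. The deposited values are raw counts per gene made by the authors, 1 HTSeq table a library. STAR, TopHat, HTSeq, DESeq2 and GRCm38 are named in the submitters' processing notes; no source used here gives versions, roles or the strand setting. The 5 summary lines of HTSeq were left out of library sizes. One fit of 8 groups and 24 cancer cell libraries was made with edgeR 4.0.16 in R 4.3.3 (TMM scaling, filterByExpr with a minimum count of 10, quasi-likelihood test, 16 residual degrees of freedom; the common coefficient of biological variation was 2.61%), and p-values were adjusted by Benjamini-Hochberg over all genes tested. SE is the log2 fold change divided by the root of F. The test was also run on simulated counts with the same spread for every gene and group, so unequal spread between groups was not checked. No pair of libraries of a group was identical (0 of 24 pairs).

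The comparison, the 37 gene lists and the rule for naming genes were chosen with earlier results of these data known. The rule took a fixed set of targets, the 15 largest rises and falls of at least 5 CPM, the 12 smallest p-values in each direction, up to 5 members per list and 8 genes per interaction; 38 named genes fall outside it and were chosen after their values were seen, and some genes the rule took are not reported here. Promoters came from RefSeq (27025 genes). Exons of 63 of the 177 tested genes named overlap another gene (GENCODE M21). Without a known strand setting, reads of such partners cannot be told apart, which makes these values uncertain; they include Parp1, Fn1, Ddit3, Manf, Pdia6, Hsp90b1, Sqstm1, Sepp1, Cd274, Mmp11, Cdkn1a and Ppp1r15a. Alternatives tried were DESeq2 1.42.0, other scalings, no filter, only the groups compared, a replicate block, and each library left out.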

Additional observations from a re-analysis of the deposited data

Results flagged for a closer look

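The response to olaparib differed between vector cells in coculture and vector cells alone, by the interaction test, for 2186 genes. The 8 with the smallest adjusted p-values under the naming rule were chosen for that difference, and their values are given as coculture minus monoculture on the log2 scale. Arrb1, which encodes beta-arrestin 1, had an interaction of -0.92: it rose alone (0.78) and fell in coculture (-0.14). Rnf217, a ubiquitin ligase gene, had -0.71 and rose alone (0.53) but fell in coculture (-0.19). Tbl2 had -0.64, with 0.55 alone and -0.09 in coculture; the latter was not called without DMSO library 1 (-0.06, adjusted p = 0.18) or olaparib library 1 (-0.08, adjusted p = 0.11). Bnip3, a mitophagy receptor induced by hypoxia, had -0.57, with 0.38 alone and -0.19 in coculture. Egln1, an oxygen-sensing prolyl hydroxylase, had -0.54, and the glucose transporter Slc2a1 had -0.48. Both rose alone (0.57 and 0.46) and neither was called in coculture (0.03 and -0.02). In the other direction, the matrix protein gene Sned1 had 0.61, with -0.05 alone and 0.55 in coculture, and the matrix protease gene Mmp11 had 0.72. Without the 2 monoculture DMSO libraries that held Lyz2 above 2 CPM the count was 1161.

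The response also differed between vector and F133V cells in coculture, for 10751 genes. The 8 with the smallest adjusted p-values are given as vector minus F133V. Genes of redox metabolism that fell in F133V cells were among those in 1 direction: Akr1b3, an aldose reductase gene, at 3.39, Gclm, the modifier subunit of glutathione synthesis, at 3.38, and Txnrd1, the cytosolic thioredoxin reductase, at 2.28. In vector cells Akr1b3 fell by 0.42, Txnrd1 fell by 0.15 and Gclm was not called (-0.06). Hsph1, a heat shock protein gene, had 1.81. In the other direction stood the fatty acid desaturase Scd2 at -2.44, Ankrd44 at -2.42, the interferon-induced Ifitm1 at -2.14 and cyclin D1 (Ccnd1) at -1.91. Ifitm1 rose in both cell types, by 0.32 in vector and by 2.46 in F133V cells. Ccnd1 fell by 0.10 in vector cells and rose by 1.81 in F133V cells.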

How the results depend on the processing

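The main count of 3765 genes was 3347 with DESeq2, 3735 with RLE scaling, 3704 with scaling by library size alone, 3518 without a filter, 4560 from a fit of only the 2 groups, and 3093 to 3196 with each library left out in turn. No gene called both there and under one of these had opposite signs. With the replicate number as a block the count was 3843; deviations of same-numbered libraries correlated at 0.054, -0.066 and -0.011 over 9804 genes, so the numbers were not taken to pair the samples. Leaving out libraries gave 1750 to 1981 genes for the interaction with monoculture, 10455 to 10561 for that with F133V, 4145 to 4281 in monoculture and 11793 to 11955 in F133V cells. Without the 2 monoculture DMSO libraries with Lyz2 above 2 CPM, the interaction count was 1161 and the monoculture count 2952, partly by construction, since 1 control library remained. Scaling by library size alone moved the share of higher calls from 52.3% to 66.2% for the interaction with monoculture, from 47.4% to 34.1% for that with F133V and from 51.5% to 63.5% in F133V cells; in monoculture the share moved from 50.3% to 40.9%. In the fit of only 2 groups the genes called lower went from 3 to 5 for NF-kB and for homologous recombination, from 2 to 5 for S phase and from 1 to 3 for TGF-beta. List medians were also taken after removing a trend with exon length, chosen after seeing the data: ER chaperones stood at -0.27, the integrated stress response at -0.20 and the respiratory chain at 0.15. Genes near 0 that were not called changed sign: Parg was at -0.0018 in the fit of 2 groups, and Pck2 at 0.0017 with DESeq2, 0.0013 with RLE scaling, 0.0018 with library size alone and 0.00022 without a filter. With libraries left out in turn, Csf1 ranged from -0.013 to 0.031, Ddit4 from -0.0020 to 0.012, Lyz2 from -0.13 to 0.067, Mb21d1 from -0.055 to 0.068, Mdm2 from -0.015 to 0.0036, Parg from -0.011 to 0.016, Pck2 from -0.011 to 0.013 and Sesn2 from -0.014 to 0.0043.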

Other observations

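Circadian clock genes moved in both directions in vector cells in coculture: of 17 tested, 5 rose and 5 fell with olaparib, beside 12.6% and 10.9% of all genes. The higher count was 3 without DMSO library 1, olaparib library 2 or olaparib library 3, and the lower count was 3 without DMSO library 2. Repressors of transcription in the clock went both ways. Ciart fell from 43.4, 46.3 and 43.1 to 35.3, 35.8 and 34 CPM (-0.34 ± 0.04, adjusted p = 1.2e-08), Nfil3 fell by 0.30 and Cry1 by 0.24. Bhlhe40, a repressor too, was higher, at 0.37. Dbp, an output factor of the clock, rose from 24.8, 24 and 23.8 to 29.6, 30.2 and 30.3 CPM (0.31 ± 0.05, adjusted p = 1.7e-06). The groups did not overlap for Ciart or Dbp. No source used here gives the harvest times, and their part in this was not tested.

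Structural noncoding RNAs were lower or not called. Of 13 tested, 5 fell and 0 rose (median -0.25), beside 10.9% and 12.6% of all genes. The median was -0.15 without olaparib library 3 and -0.39 without olaparib library 2, and 8 fell and 1 rose without a filter or in a fit of only the 2 groups. Rn7sk, an RNA that sequesters P-TEFb, was at 12, 11.4 and 10.4 CPM with DMSO and at 8.58, 8.67 and 8.38 CPM with olaparib (-0.40 ± 0.08, adjusted p = 7.4e-05). Rmrp, the RNA of RNase MRP, was at 1.91, 1.96 and 2.02 against 1.11, 0.904 and 0.687 CPM (-1.11 ± 0.20, adjusted p = 4.6e-05), and Rpph1, the RNA of RNase P, fell by 0.59. The snoRNA hosts Snhg12 and Gas5 fell by 0.39 and 0.15. The capture of such RNAs depends on the library method, which no source used here gives, and the part of that was not tested.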
